A study of Mus musculus with 15 samples.

Results

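The genes described here carry a signal from Toll-like and interleukin-1 receptors to NF-κB, or hold that signal back. They are Myd88 and Tirap (adaptors), Irak1, Irak2 and Irak4 (kinases), Traf6 (a ubiquitin ligase), and Irak3, Tollip and Sigirr (inhibitors). They were chosen by name from the pathway, and all 9 were found among the 561 genes of a nanoString nCounter Mouse Immunology panel, an assay that counts RNA molecules with colour-coded probes and without amplification. Genes averaging 20 or more raw counts per sample were tested, which left 269 genes, 8 of them from this set. Sigirr was counted too rarely to be tested.

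RAW264.7 cells, a virus-transformed mouse macrophage line, were given lipopolysaccharide (LPS, the bacterial ligand of the receptor TLR4) together with extracellular vesicles (EVs) for 24 hours. The EVs came from plasma of young adult female C57BL/6J mice, either sham mice or mice killed 3 or 7 days after 2 or 9 Gy of whole-body irradiation (WBIR). The 15 samples form 5 groups of 3 named sham, 2 Gy day 3, 2 Gy day 7, 9 Gy day 3 and 9 Gy day 7. All groups received LPS and EVs, so each comparison is between sources of EVs, and none shows the effect of LPS or of EVs as such. The cells were a single line. The paper says that samples were run in triplicate. Neither it nor the labels say whether the 3 samples of a group came from separate donor mice or only from separate wells. The p-values therefore measure the spread between these samples, which may be technical.

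When a Toll-like receptor that uses this route binds its ligand, MyD88 gathers IRAK4 and then IRAK1 and IRAK2 on the receptor's tail, with TIRAP bridging MyD88 to TLR2 and TLR4. IRAK1 and IRAK2 pass the signal to TRAF6, whose ubiquitin chains switch on the kinases that release NF-κB. IRAK3, also called IRAK-M, Tollip and SIGIRR act on the receptor complex and are known to limit the response, and IRAK3 is known for its part in macrophages that respond weakly to repeated LPS. TLR4 has a second route through the adaptor TRIF, which leads to interferon-β.

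The total count per sample was between 453178 and 837995 in 4 groups and between 43176 and 87899 in the 9 Gy day 3 group, whose values therefore carry the largest counting error. Of the samples titled 9 Gy day 3, 2 carry a day label of 7 and were placed at day 3 by their titles. Counts are given as scaled counts, meaning raw counts divided by the geometric mean of 14 housekeeping genes in the sample and brought to a common level. On that scale the median log2 fold change of all 269 genes was -0.46 at 9 Gy day 3 and -0.45 at 9 Gy day 7 against sham. The cells carried macrophage markers (9 of 12 listed were on the panel, with 20 to 6055 raw counts in sham samples). Of 24 listed T cell, B cell, NK, platelet and endothelial markers on the panel, 20 had at most 20 raw counts in every sham sample, and the others were Cd8a, Lck, Ms4a1 and Icam2 with 22 to 125. The summed scaled counts of the macrophage markers were 12355 to 17253 in sham samples and 7572 to 9254 in the 9 Gy samples, and those of the 9 T cell markers were 205 to 234 and 98.3 to 153. Their part in the results was not tested.

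The start regions of Tollip, Irak2 and Irak3 are shown because these are the members with over 100 raw counts in every sham sample, and all were called lower after 9 Gy than after 2 Gy. Tollip lies at chr7:141881580-141902461, Irak2 at chr6:113638467-113695026 and Irak3 at chr10:120141648-120202130 (GRCm38.p6, RefSeq). The 250 bases before each outermost start site were read 5′ to 3′ on the gene's strand, at chr7:141902462-141902711 (minus), chr6:113638217-113638466 (plus) and chr10:120202131-120202380 (minus), and capitals mark matches to an NF-κB motif.

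Tollip: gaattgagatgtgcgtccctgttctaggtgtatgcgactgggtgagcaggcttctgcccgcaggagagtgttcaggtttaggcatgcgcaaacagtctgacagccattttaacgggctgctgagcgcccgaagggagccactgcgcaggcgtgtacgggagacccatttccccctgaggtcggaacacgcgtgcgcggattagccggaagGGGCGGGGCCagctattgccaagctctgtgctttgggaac
Irak2: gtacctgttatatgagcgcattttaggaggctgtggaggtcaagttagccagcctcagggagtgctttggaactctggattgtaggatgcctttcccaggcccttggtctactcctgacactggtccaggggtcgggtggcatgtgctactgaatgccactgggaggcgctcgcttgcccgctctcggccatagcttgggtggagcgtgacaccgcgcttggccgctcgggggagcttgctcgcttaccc
Irak3: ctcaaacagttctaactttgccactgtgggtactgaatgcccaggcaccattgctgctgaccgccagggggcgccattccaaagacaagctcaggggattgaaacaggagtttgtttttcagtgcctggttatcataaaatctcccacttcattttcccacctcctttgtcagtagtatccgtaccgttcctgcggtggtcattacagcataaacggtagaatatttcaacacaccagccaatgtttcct

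The motifs searched on both strands were the NF-κB motif (GGG, any 5 bases, CC), AP-1 (TGANTCA) and STAT (TTCNNNGAA). The Tollip window holds 1 NF-κB match, from 40 to 31 bases before the start, and the Irak2 and Irak3 windows shown hold no match to any of the 3. A start site of Irak3 inside the gene has 2 overlapping NF-κB matches, between 26 and 16 bases before it. RefSeq windows were held for 8 of the 9 genes (11 windows), and 8 of these windows, from 6 genes, hold the NF-κB motif (both windows of Irak1 and of Tirap overlap and share their matches), against 45.8% of 32851 windows of the same length. None of the 11 holds the AP-1 motif (6.75% of all windows), and Myd88 alone holds the STAT motif (7.02%), which reads the same on both strands. These are matches of letters and do not show binding.

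With this scaling and all samples, Tollip had the largest fold change of the members in both 9 Gy comparisons with sham, as the plot of scaled counts by sample shows. Its scaled counts were 996, 809 and 999.6 in the sham samples. They were 182, 221 and 239 at 9 Gy day 3, and 199.9, 220.1 and 293 at 9 Gy day 7. Every 9 Gy sample was below every other sample of the series. Tollip fell 4.32-fold at day 3 (log2 fold change -2.11 ± 0.17 SE, n = 3 per group, adjusted p = 4.0e-07 by edgeR's quasi-likelihood test) and 3.93-fold at day 7 (-1.97 ± 0.16, adjusted p = 2.9e-07 in the same edgeR fit). Relative to the median of all genes the log2 changes were -1.66 and -1.53. In a lysate of a whole culture, fewer cells with a transcript and less of it per cell cannot be told apart.

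**Figure D1:**
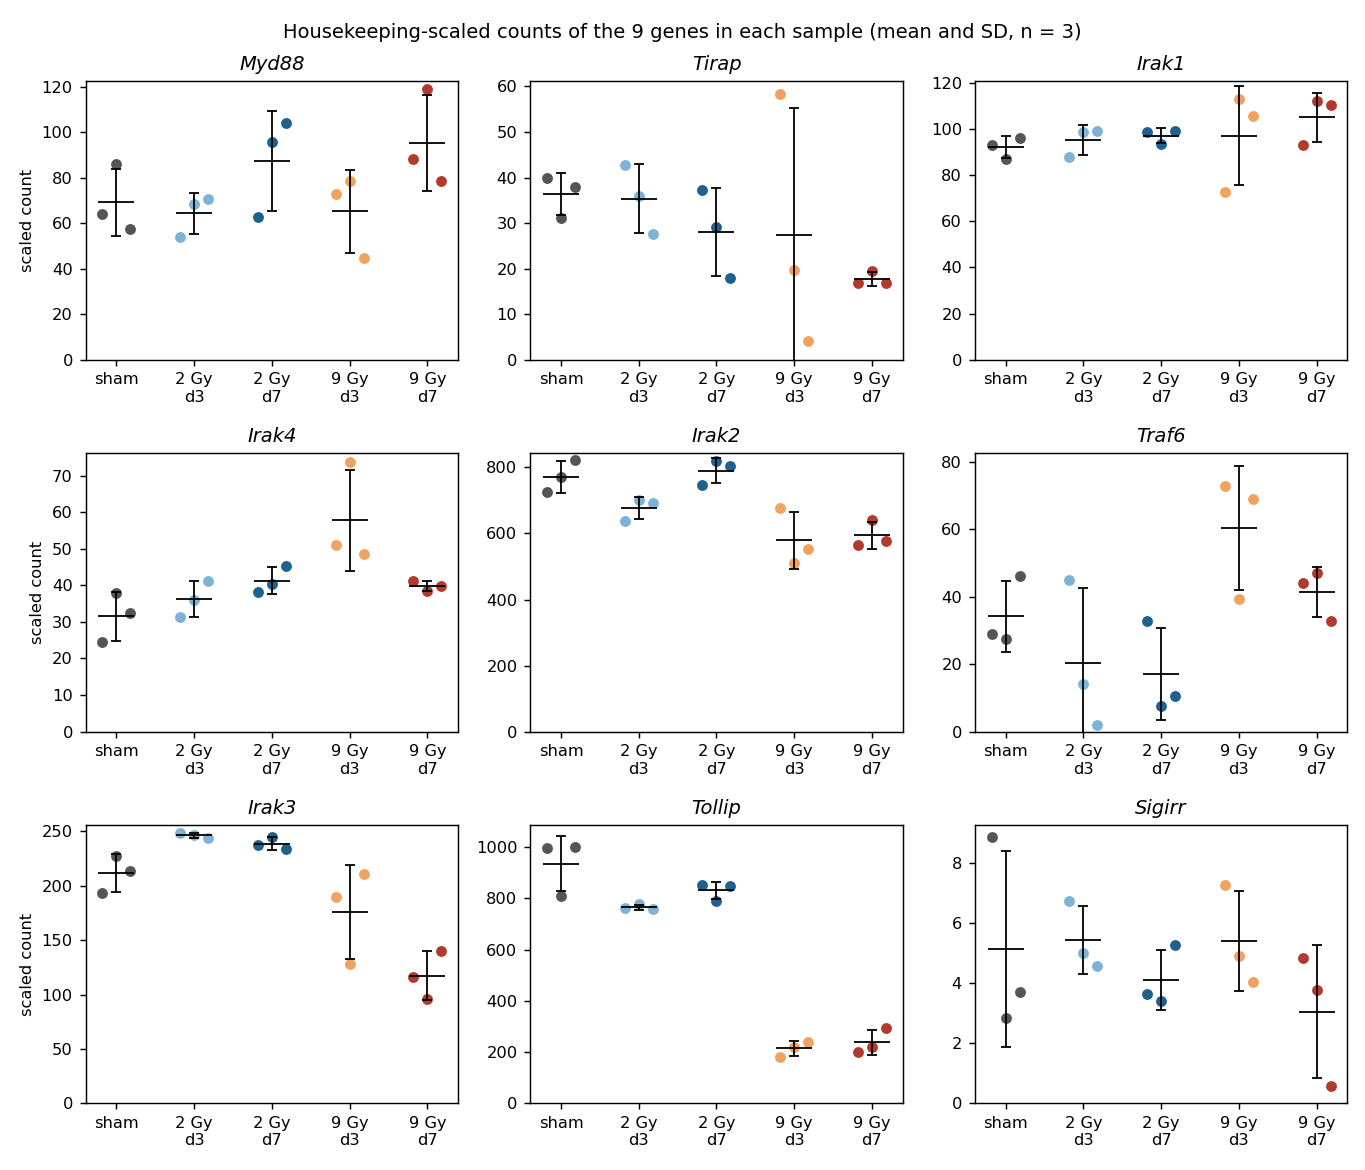
Scaled counts (y axis, linear from 0, each panel with its own range) of the 9 genes in the 15 samples, grouped on the x axis by EV source, with points for samples 1 to 3 from left to right and a line and bar for the mean and SD (n = 3; bars that pass 0 are cut there). The Tollip points of both 9 Gy groups lie between 182 and 293, below the lowest other Tollip value of 757.

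After 2 Gy the level of Tollip was 762, 776 and 757 scaled counts at day 3, below all sham samples, and 852, 791 and 848 at day 7, which overlapped sham. Neither change passed the test (-0.29 ± 0.15 with adjusted p = 0.998 and -0.17 ± 0.15 with adjusted p = 0.944, edgeR). The 2 Gy day 3 samples were all below the 2 Gy day 7 samples. The fall after 9 Gy was also present against 2 Gy, at 3.51-fold over both days (-1.81 ± 0.11, n = 6 per dose, adjusted p = 1.2e-08, edgeR). Same-numbered samples of the days deviated together within each dose, so this n may overstate the replication. The call held when such samples were summed.

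Irak3, whose product is a kinase-dead relative of IRAK1, showed a lower level at 9 Gy day 7 and a wide spread at 9 Gy day 3. The sham samples had 193, 228 and 214 scaled counts. At 9 Gy day 7 the values were 117, 95.6 and 140.5, all below sham, a fall of 1.80-fold (-0.85 ± 0.17, adjusted p = 0.000778, edgeR). That call was lost under median of ratios (-0.35), TMM (-0.36) and total counts (0.25). At 9 Gy day 3 they were 189, 128 and 211, from 26, 26 and 52 raw counts, overlapping sham (-0.26 ± 0.19, adjusted p = 0.249, edgeR).

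Irak3 in the 2 Gy samples lay on the other side of sham. It had 248, 247 and 244 scaled counts at day 3 and 238, 245 and 234 at day 7, all 6 above every sham sample, by 0.22 ± 0.17 and 0.18 ± 0.17 on the log2 scale, and neither passed the test (adjusted p = 0.998 and 0.944, edgeR). The 9 Gy samples were all below the 2 Gy samples, and this difference passed (-0.75 ± 0.13, adjusted p = 0.000146, edgeR; -0.31 relative to the median of all genes). It was not called under TMM scaling (-0.29, adjusted p = 0.0555), and total counts called it higher (0.37, adjusted p = 0.00586). With same-numbered samples of the days summed, the difference between doses was also called. Between the 9 Gy days the difference was -0.58 ± 0.19, with an adjusted p of 0.986 by edgeR (0.00852 unadjusted).

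Irak2, a kinase that sustains the signal to TRAF6, had scaled counts of 724, 769.7 and 821 in sham samples. The values were 677, 511 and 552 at 9 Gy day 3 and 565, 639.6 and 578 at 9 Gy day 7, all below sham. The changes were -0.42 ± 0.13 (adjusted p = 0.0136) and -0.38 ± 0.12 (adjusted p = 0.0158), and -0.32 ± 0.09 against 2 Gy (adjusted p = 0.00542), in the edgeR fit. Relative to the median of all genes they were 0.04 and 0.07, so Irak2 lay close to the middle of the panel, and its direction turned under other scalings. The call at day 3 was lost without 9 Gy day 3 replicate 2 (adjusted p = 0.0695) or sham replicate 3 (0.0517), and the call at day 7 without 9 Gy day 7 replicate 1 (0.051) or sham replicate 3 (0.0591). Both were lost in fits of only the groups compared (0.0896 and 0.0652), and that at day 3 with the conflicting samples at their labelled day (0.062). At 2 Gy day 3 the values of 638, 701 and 692 were also all below sham (-0.19 ± 0.12, adjusted p = 0.998, edgeR), and at 2 Gy day 7 the values of 748, 819 and 803 overlapped it.

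Irak4 and Irak1 are the kinases that start the chain. Irak4 (chr15:94543613-94568317) had 24.4, 37.8 and 32.4 scaled counts in sham samples, 51.0, 73.8 and 48.7 at 9 Gy day 3 and 41.1, 38.4 and 39.9 at 9 Gy day 7. Both 9 Gy groups were above all sham samples, as were 11.9% of all genes at day 3 and 12.6% at day 7. The rise passed the test at day 3 (0.87 ± 0.23, adjusted p = 0.0117, edgeR) and not at day 7 (0.33 ± 0.18, adjusted p = 0.136, edgeR).

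The Irak4 values at 9 Gy day 3 rest on 7, 15 and 12 raw counts, with 95% Poisson intervals of 2.81 to 14.4, 8.40 to 24.7 and 6.20 to 21.0 that cover counting error only. Without 9 Gy day 3 replicate 2 the rise was 0.64 (adjusted p = 0.167), and it was not called without the 2 samples of conflicting day label (0.62), which leaves 1 sample at 9 Gy day 3 with 12 raw counts. The 2 Gy samples had 31.5, 35.9 and 41.3 scaled counts at day 3 and 38.1, 40.3 and 45.3 at day 7, the latter all above sham with no call (0.38 ± 0.19, adjusted p = 0.944, edgeR). Irak1 (chrX:74013914-74023921) had, on the housekeeping scale, overlapping levels in all groups, with 86.9 to 96.2 scaled counts in sham samples, 87.7 to 99.1 in 2 Gy samples and 72.8 to 113 in 9 Gy samples. Its changes against sham were between 0.05 and 0.19, and none passed, although other scalings called it higher after 9 Gy.

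The adaptors differed from each other. Myd88 (chr9:119335934-119340018) had 64.3, 85.9 and 57.3 scaled counts in sham samples, 72.8, 78.7 and 44.6 at 9 Gy day 3 and 88.2, 119 and 78.6 at 9 Gy day 7. These groups overlapped, and the changes of -0.12 ± 0.31 and 0.46 ± 0.24 did not pass (adjusted p = 0.751 and 0.110, edgeR), although the latter was called without sham replicate 2 (0.65, adjusted p = 0.0453). Under each of the 4 other scalings the day 7 change was called higher (0.66 to 1.59). The 2 Gy samples had 54.0, 68.6 and 70.6 at day 3 and 62.6, 95.9 and 104 at day 7. Between these days the change was 0.44 ± 0.24 (adjusted p = 0.998, edgeR), but with the replicate number as a block in a fit of the 2 Gy groups alone it was 0.45 with adjusted p = 0.0401 (27 genes called by edgeR).

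Tirap (chr9:35184391-35200291) had 39.9, 31.2 and 37.9 scaled counts in sham samples and 16.9, 19.5 and 16.8 at 9 Gy day 7, all lower. This fall of 2.04-fold passed the test (-1.03 ± 0.35, adjusted p = 0.0206, edgeR), and the call was lost without 9 Gy day 7 replicate 1 (adjusted p = 0.0586), sham replicate 1 (0.0602) or sham replicate 3 (0.0538). It was also lost under each of the 4 other scalings, with values from -0.83 to 0.067. At 9 Gy day 3 the 3 samples had 8, 4 and 1 raw counts, which scale to 58.2, 19.7 and 4.06, and 1 is the lowest count in the table. Their change did not pass (-0.66 ± 0.53, adjusted p = 0.296, edgeR), and it rested on single samples, at -1.69 without 9 Gy day 3 replicate 1 (adjusted p = 0.0268) and -0.014 without 9 Gy day 3 replicate 3 (adjusted p = 0.976). Without the 2 samples of conflicting day label it was called too, from a single sample with 1 raw count and a spread borrowed from the other groups, so that its size cannot be read. Against 2 Gy the change of Tirap was -0.65 ± 0.32 (adjusted p = 0.0826, edgeR), but it was called by DESeq2 (-0.65, adjusted p = 0.0313), without 9 Gy day 3 replicate 1 (-1.16) or 2 Gy day 7 replicate 3 (-0.76), with same-numbered samples of the days summed (-0.80, adjusted p = 0.0135), and with the conflicting samples at their labelled day (-1.79) or left out (-1.88), where that single sample stands for 9 Gy day 3. It was -0.32 without 9 Gy day 3 replicate 3 (adjusted p = 0.30), and its direction turned under total counts (0.48) and with counts under 20 set to 20 (0.27), in neither case with a call. In the 2 Gy samples Tirap had 42.7, 35.9 and 27.5 scaled counts at day 3 and 37.2, 29.1 and 17.9 at day 7, overlapping sham.

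Traf6 (chr2:101678420-101701668), which passes the signal on to NF-κB, was uneven within the 2 Gy groups. Its raw counts there were 40, 17 and 2 at day 3 and 36, 9 and 10 at day 7, in libraries of full depth, against 26, 29 and 50 in sham samples. The SD of its scaled counts was 109% of the mean at 2 Gy day 3 and 80.6% at 2 Gy day 7, where counting error alone would give 22.5% and 23.4%. The scaled counts at 9 Gy were 72.8, 39.3 and 68.9 at day 3 and 44.1, 47.2 and 33.0 at day 7, and neither group passed the test against sham (0.80 ± 0.73 and 0.27 ± 0.57, adjusted p = 0.368 and 0.698, edgeR). The difference between 9 and 2 Gy was called (1.45 ± 0.50, adjusted p = 0.0200, edgeR), and the groups overlapped. It was not called without 9 Gy day 3 replicate 3 (1.37, adjusted p = 0.0604) or without the 2 samples of conflicting day label (1.55, adjusted p = 0.0643), which leaves 4 samples of 9 Gy. Nor was it called when same-numbered samples of the days, which deviated together, were summed to 3 per dose (1.25, adjusted p = 0.067).

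Sigirr (chr7:141091175-141100597), which encodes an inhibitory receptor of the interleukin-1 family, had 3 to 8 raw counts in sham samples, 4 to 6 in 2 Gy samples, 1 in each 9 Gy day 3 sample and 1 to 8 at 9 Gy day 7. Differences were not detectable at this depth.

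Counted over the 8 members tested, 3 were called at 9 Gy day 3 (1 higher and 2 lower), where 52.4% of all genes were called, 11.2% higher and 41.3% lower. At 9 Gy day 7, 4 were called, all lower, where 61% of all genes were called, 11.9% higher and 49.1% lower. Against 2 Gy, 4 were called after 9 Gy (1 higher and 3 lower), where 67.7% of all genes were called, 15.6% higher and 52% lower. With this scaling the shares of members called in either direction were below the background shares of 52.4%, 61% and 67.7%. That order depends on the scaling. Total counts called 6 members and 154 of all 269 genes at day 3, 5 and 174 at day 7, and 7 and 204 between doses. Median of ratios called 3 and 121, 4 and 153, and 6 and 169. By direction, 1 of 8 higher at day 3 and 4 of 8 lower at day 7 were near the background. The median log2 change of the members was -0.19, -0.09 and -0.13 in these comparisons, beside -0.46, -0.45 and -0.45 over all genes. At 9 Gy day 3, 1 member lay wholly above sham and 2 wholly below, beside 11.9% and 43.9% of all genes. At 9 Gy day 7 these were 1 and 4 members, beside 12.6% and 49.1%. Against 2 Gy no member lay wholly above and 2 lay wholly below, beside 7.81% and 36.1%. These comparisons share samples.

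No member was called after 2 Gy on either day, where 0% of all genes were called. None had an unadjusted p under 0.05 in edgeR, and DESeq2 called none. Irak3 at both days and Irak4 at day 7 lay wholly above sham, and Tollip and Irak2 at day 3 wholly below. The paper, which normalized in nSolver, reported Tollip and Irak2 as significantly lower with 2 Gy day 3 EVs than with sham EVs. The fit here did not call either. Over all genes, 4.83% lay wholly above and 8.18% wholly below at day 3, and 2.6% and 1.49% at day 7. Between days no member was called at either dose (0% of all genes), where 1 member, Irak3 after 9 Gy, had an unadjusted p under 0.05 and DESeq2 called none. With the replicate number as a block in a fit of the 2 Gy groups alone, edgeR called 27 of 269 genes, Myd88 among them. The change from 2 to 9 Gy did not differ between days for any member by the test of that difference (0% of all genes called, none of the members by DESeq2). The lowest unadjusted p was 0.0341, for Irak4 (-0.72 ± 0.29, adjusted p = 0.993, edgeR).

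**Figure D2:**
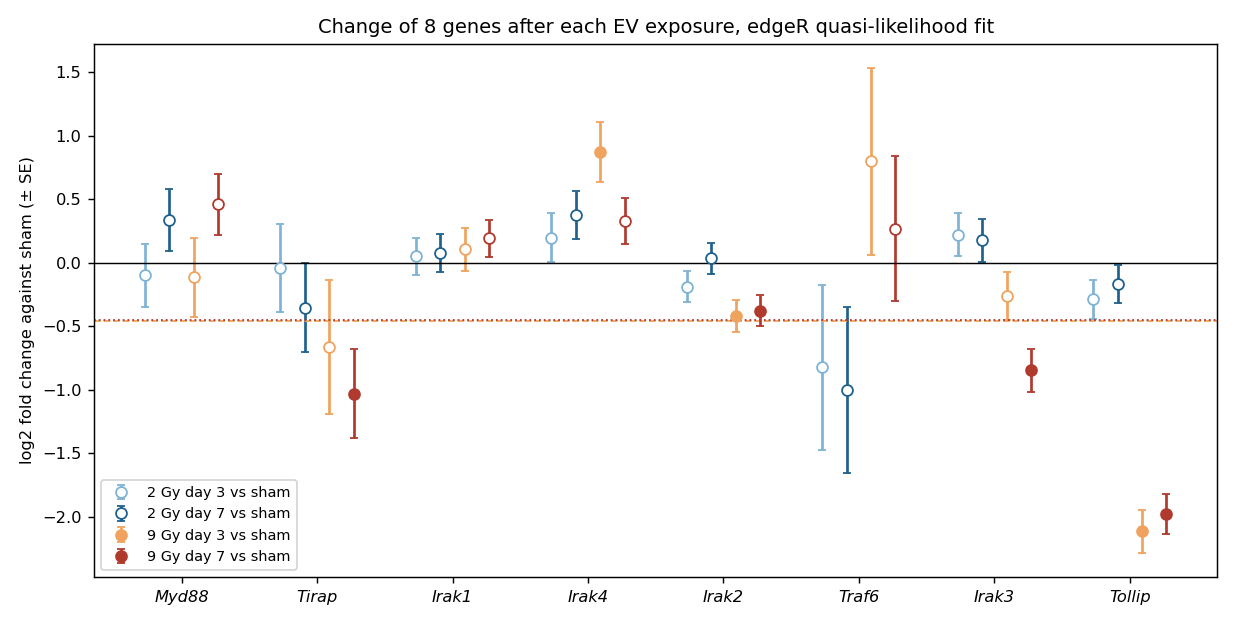
Log2 fold change against sham (y axis, points with SE) of the 8 tested genes (x axis) for the 4 irradiated groups, n = 3 per group, with filled points for adjusted p below 0.05 and broken lines for the median of all genes in the 9 Gy comparisons. Tollip stands at -2.11 and -1.97 after 9 Gy, while the Irak2 points lie near the medians of -0.46 and -0.45.

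How the samples are scaled bears on every direction above. The same fits were run with 4 other scalings, which put the median of all genes at -0.27 to 0.56 for 9 Gy day 3 and at -0.25 to 0.65 for 9 Gy day 7. With the 14 housekeeping genes 30 genes were called higher and 111 lower at day 3, and with median of ratios 60 and 61. Tollip was called lower in both 9 Gy comparisons with sham under all 5 scalings, with values from -2.11 to -1.10 (day 3) and from -1.97 to -0.90 (day 7). Under total counts, changes of Irak4 (1.89), Traf6 (1.80) and Irak1 (1.12) at day 3 were larger in size than that of Tollip (-1.10), and at day 7 so were those of Myd88 (1.59), Irak4 (1.44), Traf6 (1.39) and Irak1 (1.29) against -0.90. Irak4 was called higher at day 3 under all 5 (0.87 to 1.89), and at day 7 under the 4 other scalings (0.53 to 1.44) but not with all 14 housekeeping genes. Irak1 was higher under all 5 on both days and against 2 Gy, and it was called under 3 at day 3 (0.11 to 1.12), 4 at day 7 (0.19 to 1.29) and 4 against 2 Gy (0.09 to 1.22). Myd88 was called higher under 4 at day 7 (0.46 to 1.59).

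Irak2 was lower only under both housekeeping scalings, with values from -0.42 to 0.61 at day 3 and from -0.38 to 0.73 at day 7, and total counts called it higher. With the housekeeping genes of at least 100 counts it was not called (-0.24 at day 3, -0.18 at day 7 and -0.13 against 2 Gy). Irak3 at day 7 was between -0.85 and 0.25 and was called lower under both housekeeping scalings alone. Tirap at day 7 was between -1.03 and 0.07 and was called only with all 14 housekeeping genes. Of the members, Tollip was the only one lower under all 5 scalings in both 9 Gy comparisons with sham.

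**Figure D3:**
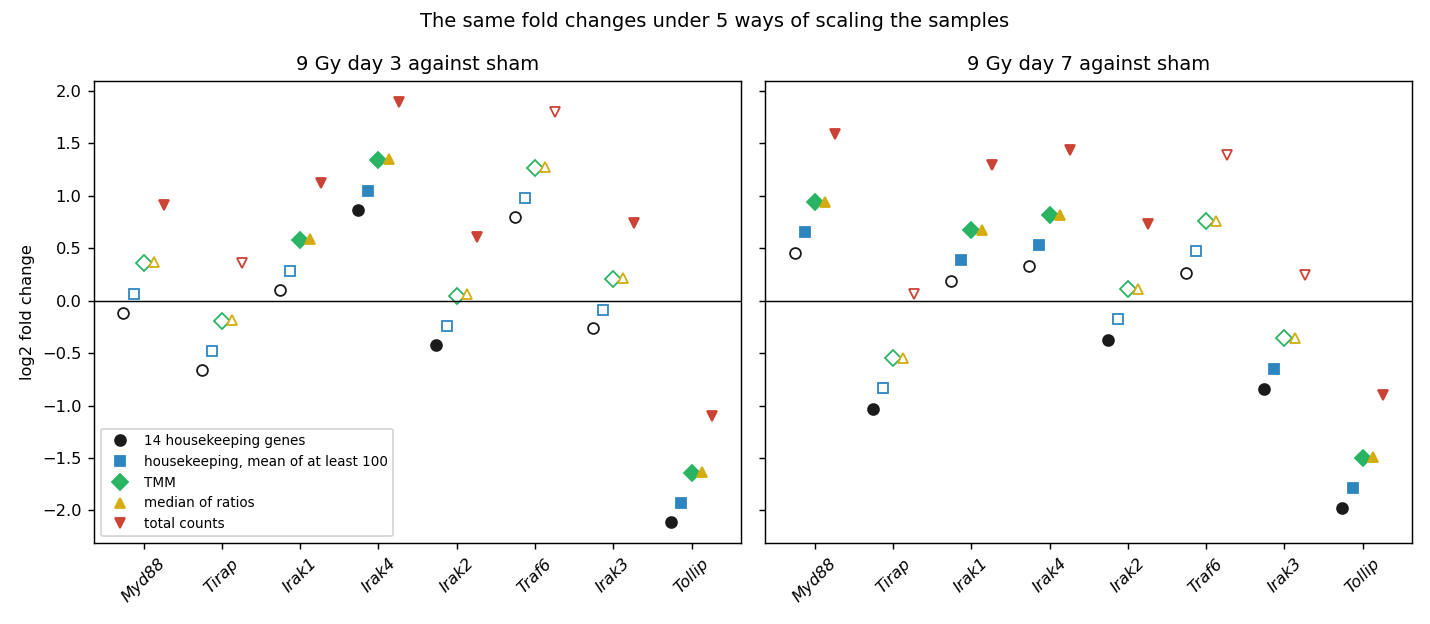
Log2 fold change against sham (y axis) of the 8 tested genes (x axis) at 9 Gy day 3 (left) and day 7 (right) under 5 scalings, marked by shape, with filled marks for adjusted p below 0.05. All Tollip marks lie at or below -0.90, and the Irak2 marks run from -0.42 to 0.73 across zero.

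A ratio of counts within a sample needs no scaling. The log2 ratio of each member to Irak2, the member whose lowest count was highest, was compared by an exact two-sided permutation test, 7 ratios in each comparison. The Tollip to Irak2 ratio was between -0.05 and 0.26 in 2 Gy samples, between 0.07 and 0.46 in sham samples and between -1.87 and -0.98 in 9 Gy samples. The difference in means was -1.51 between 9 and 2 Gy (exact p = 0.00216, n = 6 against 6) and -1.65 between 9 Gy and sham EVs (exact p = 0.0119, n = 6 against 3), each the smallest p that the design can give. Tollip therefore counted lower relative to Irak2 in all 6 samples of 9 Gy, whatever the scaling.

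The Irak4 to Irak2 ratio was higher after 9 Gy by 0.65 than after 2 Gy (exact p = 0.00216) and by 1.03 than after sham EVs (exact p = 0.0119), with no overlap in either. The Traf6 to Irak2 ratio was higher by 2.28 and 0.97 (exact p = 0.00433 and 0.0119), and the uneven 2 Gy values above enter the first. These 3 ratios of 7 passed in each comparison after Benjamini-Hochberg adjustment over the ratios. The share of all tested genes whose ratio to Irak2 would pass was not computed. In the edgeR fit 67.7% of all genes were called between 9 and 2 Gy, so the count of 3 is not particular to the members. Against sham EVs, leaving out any of 6 single samples, every sham sample among them, left 0 of 7 ratios passing. With a sham sample out, 3 ratios at the smallest p of that design cannot pass, and over all samples left out in turn the difference stayed between -1.75 and -1.55 for Tollip and between 0.86 and 1.17 for Irak4. The ratios of Irak3 (-0.45 and -0.17), Tirap (-0.38 and -0.54), Irak1 (0.39 and 0.53) and Myd88 (0.40 and 0.60) did not pass. With Irak3 as the denominator the same 3 ratios passed in both comparisons, and that of Irak1 also passed against 2 Gy (0.84). Since same-numbered samples of the days deviated together within each dose, these were also averaged, which left 3 against 3. The ratios of Tollip, Irak4, Traf6 and Irak1 to Irak2 then did not overlap in either comparison, nor that of Irak3 against 2 Gy, but no ratio could pass, as the smallest exact p is 0.1.

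**Figure D4:**
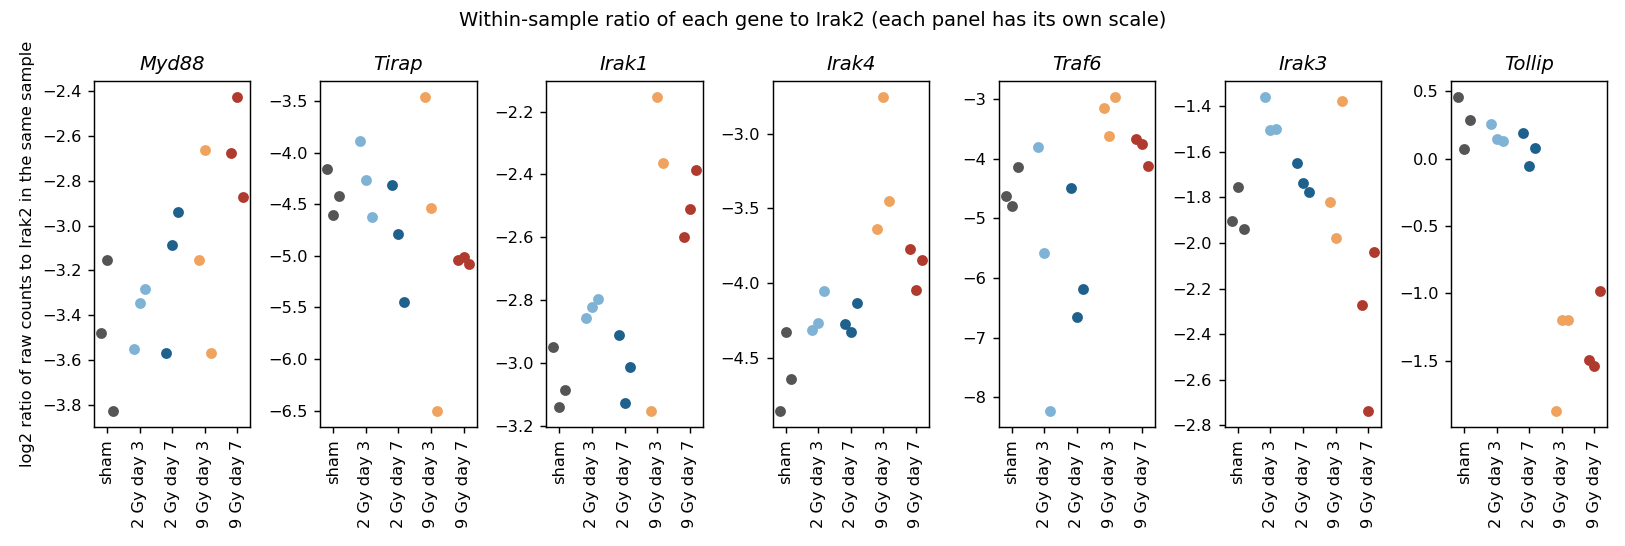
Log2 ratio of raw counts of each gene to Irak2 in the same sample (y axis, each panel with its own range) by EV group (x axis), 1 point per sample. In the Tollip panel the 6 points of 9 Gy lie between -1.87 and -0.98 and the other 9 between -0.05 and 0.46.

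Other genes whose scaled counts ran most like those of the members called in both 9 Gy comparisons were found by Pearson correlation over the 15 samples, which share their groups and scaling. For Tollip these were Ebi3 (r = 0.994), a subunit of interleukin-27 and interleukin-35, and Cd274 (r = 0.991), which encodes PD-L1. For Irak2 they were Tnfaip3 (r = 0.923), which encodes the NF-κB inhibitor A20, and Tlr1 (r = 0.919).

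The rest of the pathway was counted in the same way. Of 8 receptor genes tested, 1 rose and 3 fell at 9 Gy day 3 and again at day 7, with medians of 0.17 and -0.23. These counts are near the shares of all genes called (11.2% higher and 41.3% lower at day 3, 11.9% and 49.1% at day 7). The log2 changes at day 3 and day 7 were -1.20 and -1.34 for Cd14, the coreceptor of TLR4 for LPS, and -1.30 and -1.15 for Tlr1. At 9 Gy day 3 Tlr1 had 5, 3 and 3 raw counts. Of 11 other adaptors and kinases, none passed at day 3 and 2 fell at day 7 (medians -0.11 and -0.27), namely Ikbkg (-0.61) and Tbk1 (-0.64), a scaffold and a kinase of the IKK family. These counts are below the shares of all genes called lower, and the all-gene medians were -0.46 and -0.45.

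Of 8 NF-κB subunits and inhibitors, 1 rose and 3 fell at day 3 and 3 fell at day 7 (medians -0.22 and -0.20), also near the shares over all genes. The changes were -2.30 and -2.06 for Nfkb2, which encodes a precursor subunit, and -0.89 and -0.94 for Nfkbia, which encodes the inhibitor IκBα. Of 9 genes whose induction by LPS depends on MyD88, 7 fell at both days, where 41.3% and 49.1% of all genes were called lower, with medians of -4.06 and -4.14. At 9 Gy day 3, Il12b and Il23a had a mean of at most 3 raw counts, and with these at the bound that 3 counts per library allow, the median was -2.42. The changes were -6.10 and -6.02 for Il6 and -4.47 and -4.64 for Il1a, both inflammatory cytokines. At 9 Gy day 3 Il6 had 4, 9 and 13 raw counts and Il1a had 5, 4 and 34. The sham samples had 2290 to 4483 raw counts of Il6, and the 9 Gy day 7 samples, whose housekeeping genes were counted more often than in sham, had 61 to 101.

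Of 10 genes that depend on TRIF or interferon, 3 rose and 3 fell at day 3, and 4 rose and 3 fell at day 7 (medians 0.96 and 0.90), beside 11.2% of all genes higher and 41.3% lower at day 3 and 11.9% and 49.1% at day 7. Ifnb1, which encodes interferon-β, rose by 4.25 and 3.95, and Irf7, an interferon-induced transcription factor, changed by -2.44 and -2.36. No gene of these lists passed after 2 Gy. Medians of the 8 members were -0.19 and -0.09, beside -0.46 and -0.45 for all genes.

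**Figure D5:**
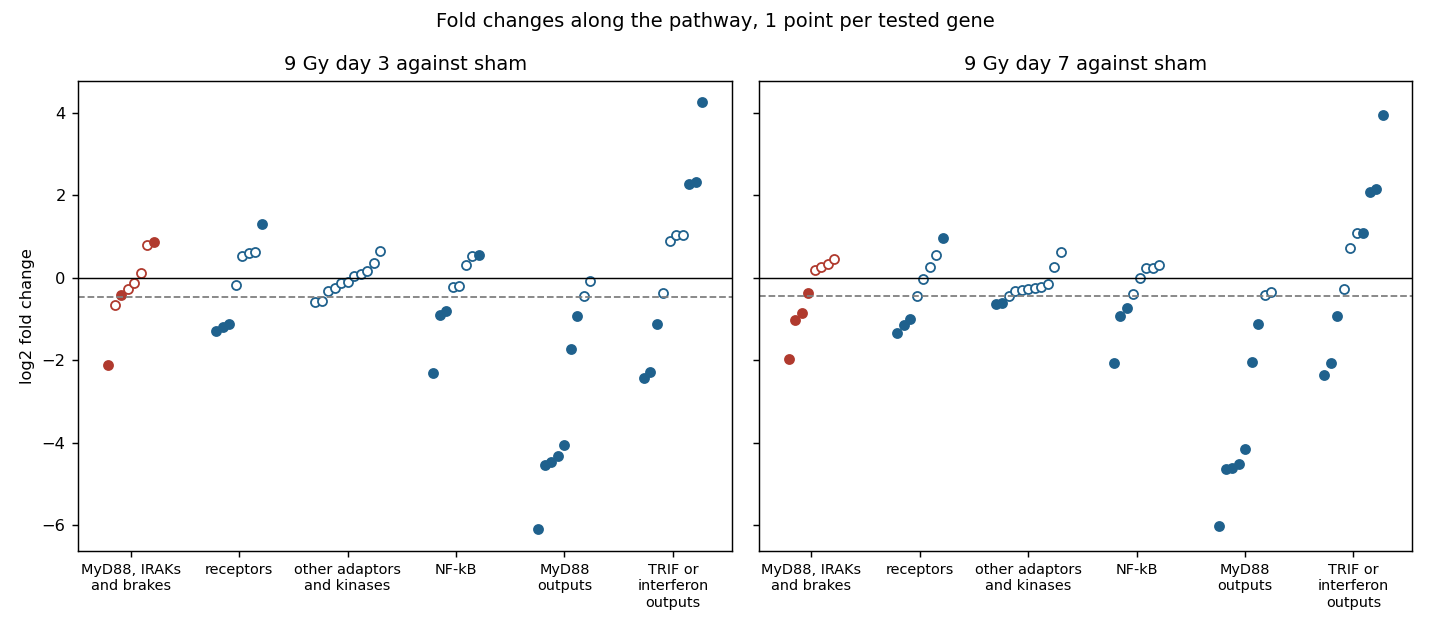
Log2 fold change against sham (y axis) at 9 Gy day 3 (left) and day 7 (right) for each tested gene, sorted within its list (x axis), with filled points for adjusted p below 0.05 and a broken line for the median of all genes. Members run from -2.11 to 0.87 at day 3, and the lowest gene that depends on MyD88, Il6, is at -6.10.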

How the data were processed

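The authors deposited raw nanoString nCounter counts of 561 genes in 15 samples, as whole numbers with a lowest value of 1. In the 9 Gy day 3 samples 190 to 246 genes had this lowest value, and in the other samples 5 to 11. They normalized in nSolver with settings not given in the sources used here. The counts held no negative controls, and no background was subtracted here. The labels and the paper differ in the EV number and the lysis reagent. Groups were taken from sample titles, and no column of values was left unused. Each sample was scaled by its geometric mean over 14 housekeeping genes. Genes averaging 20 or more raw counts entered 1 fit of all 5 groups with edgeR 4.0.16 in R 4.3.3 (quasi-likelihood, prior count 0.125 for fold changes, Benjamini-Hochberg over 269 genes, threshold 0.05). The fit and the permutation test were tested on simulated data. Ratios used raw counts plus 0.5. Alternatives were 4 scalings, other filters, a floor of 20 counts, DESeq2 1.42.0, fits of the groups compared, the replicate block, the conflicting day labels and each sample left out. Replicate pairs differed by more than counting noise, so none was merged.

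The genes and lists were chosen with earlier results of these data known. All members were named. From each pathway list, the 2 genes with the largest mean absolute log2 change called in both 9 Gy comparisons were named, and 2 most alike genes for each member called in both. Ikbkg and Tbk1 were added after their values were seen. Promoter windows and coordinates came from RefSeq tables for GRCm38.p6. Samples with the same number deviated together in every pair only between the 2 Gy groups (r from 0.392 to 0.782) and between the 9 Gy groups (0.350 to 0.730), and the block in a fit of those groups was added after seeing the data.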

Additional observations from a re-analysis of the deposited data

How the results depend on the processing

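Of 1539 alternative values, 15 changed sign with a call under either setting, and 67 others changed sign with no call under either setting. Tollip kept its direction and call in all 3 dose comparisons under every alternative run. The directions of Irak2, Irak3, Tirap and Myd88 depend on the scaling. Irak2 went to 0.061, 0.11 and 0.13 (9 Gy day 3 and day 7 against sham, and 9 against 2 Gy) under median of ratios, to 0.049, 0.11 and 0.14 under TMM, and to 0.61, 0.73 and 0.82 under total counts. Total counts also took Irak3 to 0.75, 0.25 and 0.37, Myd88 at 9 Gy day 3 to 0.92 and Tirap at day 7 to 0.067. It called 6 members at 9 Gy day 3 and 7 between doses, and over all genes 121 higher and 33 lower at day 3, 143 and 31 at day 7 and 168 and 36 between doses, where the 14 housekeeping genes gave 30 and 111, 32 and 132, and 42 and 140. Median of ratios gave 60 higher and 61 lower at day 3.

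With counts under 20 set to 20, which raises low genes in the shallow 9 Gy day 3 samples, 6 members were called at 9 Gy day 3 (Tirap at 1.20), 4 between the 9 Gy days and 2 in the dose by day test, where 184, 99 and 62 of all 269 genes were called. Leaving out single samples gave 1 to 4 members called at 9 Gy day 3 (1 without 9 Gy day 3 replicate 2, which was Tollip, with 113 of 269 genes called), 2 to 5 at 9 Gy day 7 (2 without 9 Gy day 7 replicate 1 or sham replicate 3, which were Tollip and Irak3, with 151 and 146 genes called), 3 to 5 of 7 ratios against 2 Gy and 0 to 4 against sham EVs. Averaging same-numbered samples, added after seeing the data, left no ratio that could pass. Summing them called 4 members between doses, with Tirap in place of Traf6, where 161 of 269 genes were called. A pseudocount of 5 gave 5 ratios in both comparisons. The replicate block in a fit of the groups compared called 1 member, Myd88, between the 2 Gy days (0.45), and the block over all samples changed no count by over 1.5 times. Depth limits Myd88, Tirap, Irak4, Traf6 and Sigirr at 9 Gy day 3, where each had at most 17 raw counts. The causes were not tested.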
